A study of Mus musculus with 15 samples.

Results

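The 9 genes Neurod1, Pou2f3, Atoh1, Insm1, Hes6, Prox1, Nkx2-1, Foxa1 and Foxa2 encode transcription factors of lineage and subtype in small cell lung cancer. They are the records whose gene name equals one of these symbols in both count tables, 9 of 53689 named records in set 1 and 9 of 53618 in set 2. RNA-seq counts came from 15 libraries of 12 mouse cell lines labelled as small cell lung cancer, which were taken from tissue and grown in culture. In set 1, 3 RPMS lung lines (CMV_228, CMV_231 and CMV_252) were sequenced beside 4 RPM lines of the lung, numbered CMV_426 to CMV_429. Set 2 holds 4 RPMS lines from the liver (CMV_273, CMV_341, CMV_343 and CMV_344) and 4 RPMS lines from the lung (CMV_228, CMV_231, CMV_232 and CMV_252). All lines carry the genotype Rb1-/-:Trp53-/-:MYC (RPM), and STAT3-/- is added in RPMS. How the alleles were deleted and MYC was introduced, and whether lines came from separate animals, is not given in the sources used here, so p-values measure the spread between these lines only.

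Small cell lung cancer is a tumour of mostly neuroendocrine cells, and its subtypes are named after the transcription factor that dominates a tumour. NEUROD1, a basic helix-loop-helix factor of neurons and endocrine cells, marks a neuroendocrine subtype, and POU2F3, the regulator of chemosensory tuft cells, marks a subtype without neuroendocrine genes. ATOH1, a helix-loop-helix factor of hair cells, Merkel cells and secretory gut cells, is found in some tumours. INSM1 is a zinc finger repressor that acts in endocrine differentiation. HES6 counteracts the Notch effector HES1, and PROX1 is a homeodomain factor of lymphatic endothelium, liver and neuroendocrine cells. NKX2-1 specifies lung epithelium, and FOXA1 and FOXA2 are forkhead factors that open chromatin in lung, liver and gut. Subtype is given here by these 9 genes alone, and other factors that define subtypes were not used here.

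The start regions of 5 members are shown for reference, and no test used them. Neurod1, Prox1 and Hes6 passed the test of the first comparison. Nkx2-1 was low in 1 liver line together with its neighbours, and Foxa1 held a forkhead motif. Each sequence is a RefSeq promoter window of GRCm38.p6, the first of 2 for Prox1 and Hes6. It runs from 250 bases before the start and with the 50 bases from it, 5′ to 3′ on the gene's strand (minus for all 5). Capitals mark the motif matches.
Neurod1 (chr2:79456587-79456886): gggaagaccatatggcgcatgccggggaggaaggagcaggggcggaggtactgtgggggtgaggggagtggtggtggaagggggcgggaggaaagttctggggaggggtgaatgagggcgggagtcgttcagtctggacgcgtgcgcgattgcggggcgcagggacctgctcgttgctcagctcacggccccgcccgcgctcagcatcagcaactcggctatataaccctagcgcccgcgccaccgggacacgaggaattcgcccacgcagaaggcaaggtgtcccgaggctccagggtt
Prox1 (chr1:190170778-190171077): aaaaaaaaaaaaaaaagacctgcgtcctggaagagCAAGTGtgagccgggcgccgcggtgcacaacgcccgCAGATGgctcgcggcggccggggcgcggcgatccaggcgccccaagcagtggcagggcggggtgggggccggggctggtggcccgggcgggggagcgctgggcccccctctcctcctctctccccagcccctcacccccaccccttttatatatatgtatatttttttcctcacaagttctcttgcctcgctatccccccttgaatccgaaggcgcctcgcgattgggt
Hes6 (chr1:91413989-91414288): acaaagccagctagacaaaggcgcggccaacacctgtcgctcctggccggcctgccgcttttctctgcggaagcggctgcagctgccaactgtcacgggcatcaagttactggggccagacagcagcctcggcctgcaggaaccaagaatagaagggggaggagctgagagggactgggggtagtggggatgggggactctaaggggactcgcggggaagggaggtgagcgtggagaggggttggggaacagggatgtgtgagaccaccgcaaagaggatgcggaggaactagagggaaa
Nkx2-1 (chr12:56536859-56537158): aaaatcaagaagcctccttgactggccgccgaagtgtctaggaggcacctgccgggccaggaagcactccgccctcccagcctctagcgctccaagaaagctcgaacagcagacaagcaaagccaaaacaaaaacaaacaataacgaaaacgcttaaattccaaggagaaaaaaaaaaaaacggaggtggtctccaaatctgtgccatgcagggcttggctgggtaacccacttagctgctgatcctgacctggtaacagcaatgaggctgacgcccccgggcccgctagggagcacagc
Foxa1 (chr12:57546062-57546361): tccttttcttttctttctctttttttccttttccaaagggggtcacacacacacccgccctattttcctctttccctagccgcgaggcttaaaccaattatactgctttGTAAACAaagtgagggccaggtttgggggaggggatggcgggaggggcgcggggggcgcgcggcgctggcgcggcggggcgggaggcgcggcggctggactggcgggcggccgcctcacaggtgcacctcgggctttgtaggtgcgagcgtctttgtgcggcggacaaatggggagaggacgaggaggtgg
Windows were at hand for 7 of the 9 members (11 windows, since Foxa2 has 3, and Hes6 and Prox1 have 2 each), and none for Insm1 and Pou2f3. They were searched on both strands for 4 motifs. CAGATG, an E-box form bound by NEUROD1 and ATOH1, occurred once, in the Prox1 window at position -179 counted from the start base, and in 17.2% of all 32851 windows. CAAGTG, the NKX2-1 core and itself an E-box form, occurred in the same Prox1 window at position -215, and in 13.6% of all windows. The forkhead motif TGTTTAC, the reverse complement of the capitals in the Foxa1 window, lay at position -141 from the Foxa1 start base and occurs in 3.65% of all windows. ATGCAAAT, the octamer of POU2F factors, is in 1.74% of all windows and in none of the 11 windows of the members. A match is a run of letters and not evidence of binding.

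Levels are given in CPM, counts relative to the TMM-scaled size of the library. A set 1 library held 25344949 to 31345631 counts and a set 2 library 9453715 to 18451248. A count of 3, used as the floor of detection, equals 0.0904 to 0.120 CPM in set 1 and 0.159 to 0.290 CPM in set 2. Stat3 stood at 7.81 to 19.0 CPM in the 3 RPMS libraries of set 1 and 159 to 208 CPM in the 4 RPM libraries. In set 2 it stood at 11.2 to 17.8 CPM in liver and 12.7 to 28.4 CPM in lung libraries. Rb1 stood at 21.9 to 129.9 CPM in RPMS and 38.6 to 58.9 CPM in RPM libraries of set 1, and at 59.7 to 161 CPM in liver and 28.4 to 116.7 CPM in lung libraries of set 2. Trp53 stood at 0.398 to 6.18 CPM in RPMS and 2.39 to 6.32 CPM in RPM libraries of set 1, and at 18.0 to 26.6 CPM in liver and 13.6 to 24.1 CPM in lung libraries of set 2. Which exons were deleted is not given in the sources used here, so a count over a whole gene does not check these deletions.

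The RPM libraries went against the neuroendocrine identity that the name small cell lung cancer carries. Summed over 21 neuroendocrine effector genes, RPMS libraries of set 1 had 2039 to 6105 CPM and RPM libraries had 38.5 to 121 CPM. Summed over 16 leukocyte genes, RPMS lines CMV_228, CMV_231 and CMV_252 of set 1 had 6.37, 11.96 and 125 CPM. The sums were 17560, 12352, 3759 and 6164 CPM in RPM lines CMV_426, CMV_427, CMV_428 and CMV_429. All 16 leukocyte genes had counts in every RPM library, and 10 to 12 of them were at 0 in each RPMS library of set 1. Of these 16 genes 15 fell in RPMS by the test described below, where 15.7% of all tested genes were called lower, with a median log2 fold change of -11.54 when groups at 0 are put at the floor. Of 11 fibroblast genes 9 were tested, 6 fell and 1 rose, with a median of -5.69 on the same terms, and they summed to 7.14 to 17.0 CPM in RPMS and 23.3 to 731 CPM in RPM. Of 13 hepatocyte genes only Tat was tested, and it rose, with 10.4 ± 17.0 CPM in RPMS and 0.0400 ± 0.0800 CPM in RPM (edgeR adjusted p = 0.0313). Tat ranged from 0.443 to 30.0 CPM in RPMS, and Alb and Apob had 0 counts in set 1. The hepatocyte sums were 0.766, 0.475 and 30.2 CPM in RPMS lines CMV_228, CMV_231 and CMV_252, and 0.274 to 25.0 CPM in RPM. These are bulk libraries, in which fewer cells of a type and less RNA per cell cannot be told apart. What share of the cells in the RPM cultures were tumour cells was not tested, and each difference between RPMS and RPM below is one between libraries of these makeups.

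The set 2 library of RPMS lung line CMV_252 stood apart from its group. Its neuroendocrine sum was 312 CPM, the lowest of the RPMS libraries. Across 13787 genes its log2 CPM correlated with the set 1 library of the same line at r = 0.761 and with the RPM lung line CMV_427 at 0.762. Its leukocyte sum was 8.16 CPM, against 3759 to 17560 CPM in the RPM libraries of set 1. Stat3 was at most 28.4 CPM in the lung libraries of set 2, against 159 to 208 CPM in the RPM libraries. For CMV_228 and CMV_231 the correlation of both libraries of the line was 0.875 and 0.867. Different lines could correlate as well: set 2 CMV_228 with set 1 CMV_231 at 0.873, and set 2 liver line CMV_343 with set 1 CMV_228 at 0.862. The set 1 library of CMV_252 correlated with set 2 CMV_232 at 0.807. This measure therefore does not identify a line. Whether this library comes from the line on its label cannot be told from these data. Values of set 2 that it moved are therefore given with and without the library labelled CMV_252.

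In the first comparison, RPMS lung lines were set against RPM lung lines to ask how the factors differ when Stat3 is deleted. Neurod1, Insm1, Prox1 and Hes6 were higher in RPMS lung lines and passed the test. Nkx2-1, Foxa1 and Foxa2 had higher means in RPMS and did not pass, and Pou2f3 and Atoh1 were near 0 in all libraries. Of the 9 members, 7 passed the filter on low counts, 4 passed the quasi-likelihood test of edgeR (Benjamini-Hochberg adjusted p under 0.05), all of them higher, and 14.9% of all 17654 tested genes were called higher. The RPMS libraries lay above every RPM library for 5 members, against 21.2% of all tested genes. The median log2 fold change was 3.17 over the 7 tested members, also with Neurod1 at its bound, and -0.01 over all tested genes. Neurod1 (0 counts in the RPM libraries) and Prox1 (132, 3, 17 and 0 counts there) passed the filter only through the RPMS libraries. Pou2f3 and Atoh1, near 0 in both groups, are not in the median, so the filter has a part in it and in the count of members that passed. The leukocyte sums given above separated the groups as fully as these genes did, and their part in these results was not tested.

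**Figure D1:**
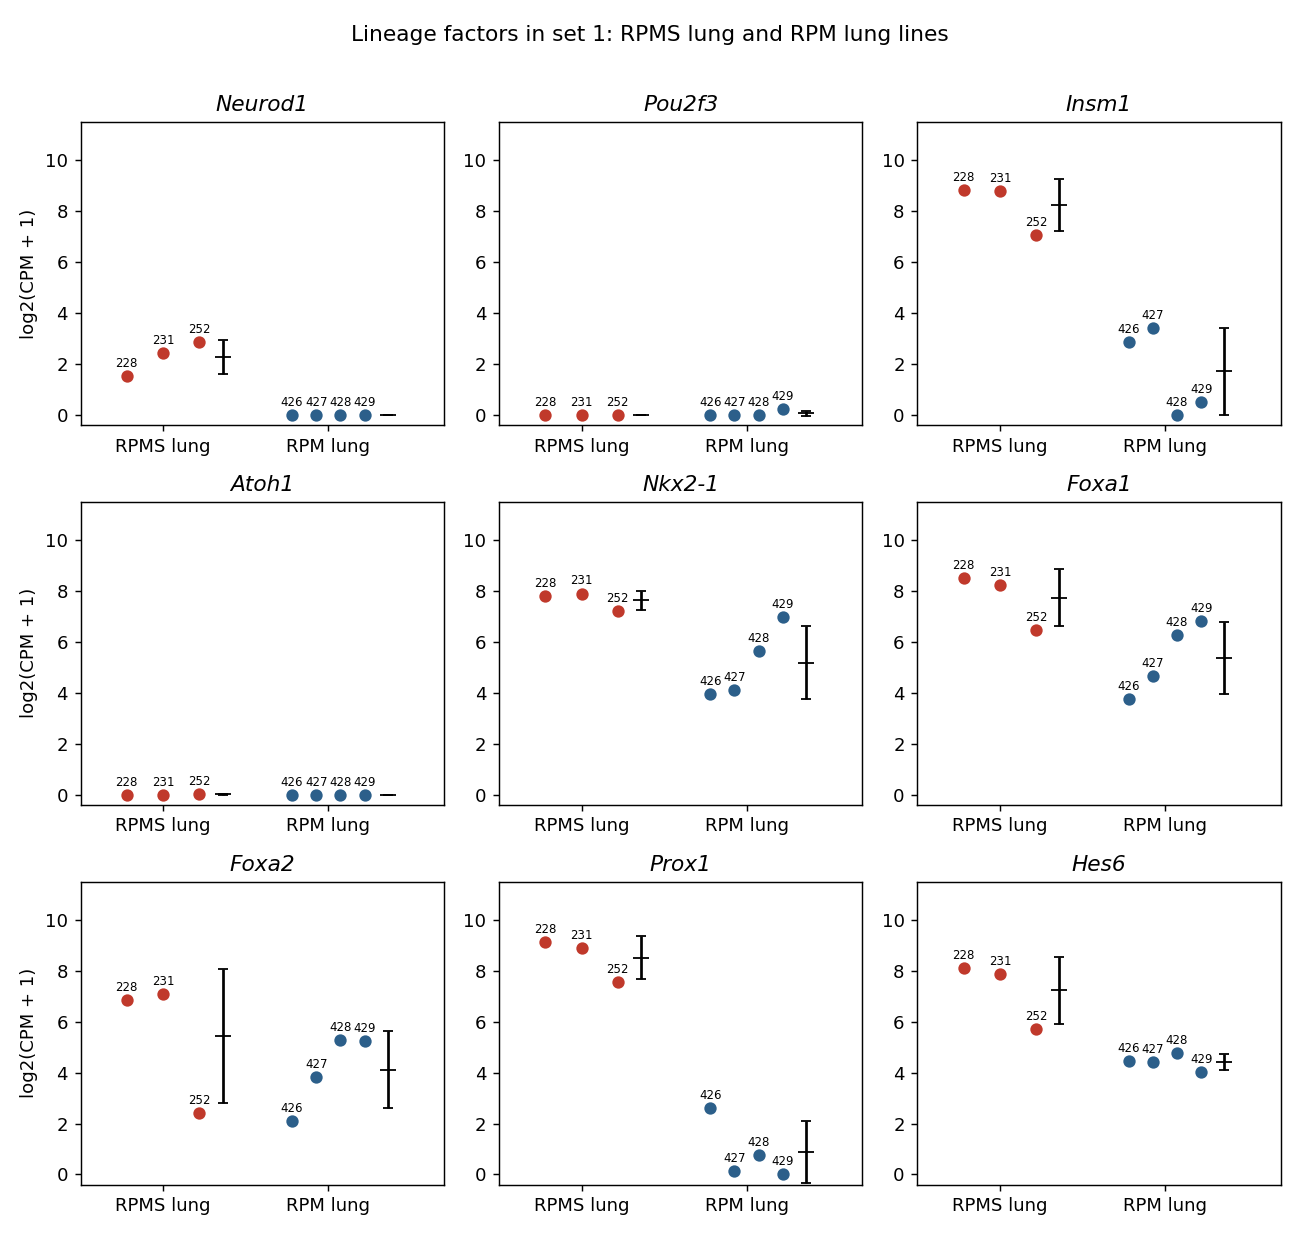
Level of each factor in set 1, as log2(CPM + 1), with RPMS lung lines left (red) and RPM lung lines right (blue), each point a library labelled by its line number, and the mean ± SD of the log values in black. Insm1, Prox1, Neurod1, Hes6 and Nkx2-1 lie above all RPM lines in all 3 RPMS lines, while Pou2f3 and Atoh1 lie at or near 0.

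Among the 3 factors that name subtypes here, Neurod1 (chr2:79452521-79456751, minus strand, 2 exons) was the only one above 1 CPM in any library. It had 1.90, 4.37 and 6.21 CPM in RPMS lung lines CMV_228, CMV_231 and CMV_252 (62, 138 and 206 counts), and 0 counts in each of the 4 RPM lung lines. The groups did not overlap. Against the floor of 3 counts per library Neurod1 was at least 35.5-fold higher in RPMS (4.16 ± 2.16 CPM, SD, n = 3; edgeR adjusted p = 0.00619). Its exons overlap Cerkl on the same strand and Gm26755 on the other strand, and the strand setting of the counting is not given in the sources used here, so reads of these genes cannot be kept apart with certainty. Cerkl had 0 counts in the RPMS libraries of set 1 and 0 to 77 counts in the RPM libraries, and Gm26755 had 0 in all 7.

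Pou2f3 (chr9:43123939-43210369, minus strand) had 0 counts in the 3 RPMS lung libraries, and 0, 0, 0 and 4 counts in RPM lines CMV_426, CMV_427, CMV_428 and CMV_429. Atoh1 (chr6:64729125-64731245, plus strand, 1 exon) had 0, 0 and 1 counts in RPMS and 0 in all 4 RPM libraries. Neither gene entered the test, and no fold is given. Of 15 tuft cell genes, 5 were tested, 1 rose and 3 fell in RPMS, where 14.9% of all tested genes were called higher and 15.7% lower. The phospholipase gene Plcb2, the adaptor gene Sh2d6 and the cyclooxygenase gene Ptgs1 fell: each had 0 counts in RPMS and means of 18.9 ± 26.3, 5.49 ± 4.96 and 21.3 ± 30.1 CPM in RPM (SD, n = 4; edgeR adjusted p = 0.0164, 0.0217 and 0.0273). Plcb2 and Ptgs1 are also expressed by blood cells. The gene that rose, named after its values were seen, was the kinase gene Dclk1, with a log2 fold change of 1.98 (SE 0.61, adjusted p = 0.0472), which neurons also express. The median log2 fold change of the 5 was -5.89 with the genes at 0 put at their bound. Of the 15 tuft cell genes, Gfi1b, Sucnr1 and Rgs13 had 0 counts in all 7 libraries. The 15 summed to 103 to 210 CPM in RPMS and 55.9 to 264 CPM in RPM. Of 8 genes downstream of or accompanying Atoh1 in hair, Merkel and secretory cells, 2 were tested and none passed (median log2 fold change -0.28). Gfi1, a zinc finger repressor, had 1.15 ± 1.06 CPM in RPMS and 1.87 ± 0.50 CPM in RPM (edgeR adjusted p = 0.519).

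Insm1 (chr2:146221921-146225020, plus strand, 1 exon) had 460, 442 and 133 CPM in RPMS lines CMV_228, CMV_231 and CMV_252, against 6.34, 9.75, 0 and 0.435 CPM in RPM lines CMV_426, CMV_427, CMV_428 and CMV_429. The groups did not overlap, CMV_252 was the lowest RPMS line, and RPM line CMV_428 had no count. Insm1 differed by a log2 fold of 6.38 (SE 1.59, edgeR adjusted p = 0.0239). Without RPMS line CMV_228 the log2 fold change was 6.12 (adjusted p = 0.0658) and without CMV_231 it was 6.17 (adjusted p = 0.0640), so neither passed, with the size hardly moved and 2 RPMS libraries left. Without CMV_252 it passed (adjusted p = 0.0273). The log2 fold change was 8.40 with limma-voom and 7.26 without RPM line CMV_427, and both passed. No annotated gene overlaps Insm1.

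Prox1 (chr1:190118035-190170714, minus strand) had 556, 471 and 187 CPM in RPMS lines CMV_228, CMV_231 and CMV_252, against 5.17, 0.112, 0.680 and 0 CPM in RPM lines CMV_426, CMV_427, CMV_428 and CMV_429. The groups were far apart, and within RPM the line CMV_426 held most of the counts (132 of 152). Prox1 differed by a log2 fold of 8.08 (SE 1.65, edgeR adjusted p = 0.0123). It was 10.59 without RPM line CMV_426 and 10.2 with limma-voom, and both passed. Prox1os, the antisense transcript that starts inside Prox1, followed it with 566, 454 and 72 counts in the same RPMS lines and 0 in all 4 RPM lines (edgeR adjusted p = 0.0105). Exons of both overlap, so part of either count could belong to the other. Gm28172, a second antisense transcript, had 0 to 28 counts in RPMS and 0 in RPM. Prox1 also marks lymphatic endothelium: of 8 endothelial genes 3 were tested and none passed (median log2 fold change -2.10), and their sum was 0.735 to 14.6 CPM in RPMS and 18.4 to 341.3 CPM in RPM. Their part in the levels of Prox1 was not tested.

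Hes6 (chr1:91411483-91414038, minus strand) had 272, 233 and 51.6 CPM in RPMS lines CMV_228, CMV_231 and CMV_252, against 20.98, 20.3, 26.1 and 15.3 CPM in RPM lines CMV_426, CMV_427, CMV_428 and CMV_429. Unlike Insm1 and Prox1, Hes6 was present in every RPM line at a nearly even level. Its log2 fold change was 3.17 (SE 0.54, edgeR adjusted p = 0.00714). Of the 8 other HES and HEY repressors, 3 were tested. Hes1, the Notch target that HES6 opposes, fell to 1.07 ± 1.40 CPM in RPMS, against 21.1 ± 11.2 CPM in RPM (log2 fold change -4.29, SE 1.20, edgeR adjusted p = 0.0347). Hes5 had 1.05 ± 0.61 CPM in RPMS and 0 counts in RPM (edgeR adjusted p = 0.0116). Hey1 did not pass, with 7.74 ± 8.46 CPM in RPMS and 5.61 ± 4.64 CPM in RPM (edgeR adjusted p = 0.774), and the median log2 fold change of the 3 was 0.47.

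Genes that work with or below these neuroendocrine factors were counted as groups. Over all tested genes 14.9% were called higher and 15.7% lower, and these groups were chosen with earlier results of these data known. Of 21 neuroendocrine effector genes, 21 were tested, 18 rose, none fell and 3 did not pass, with a median log2 fold change of 6.92. Ncam1, a neural adhesion molecule, had 249 ± 35.5 CPM in RPMS and 7.29 ± 2.26 CPM in RPM (edgeR adjusted p = 0.000916). Uchl1, a neuronal ubiquitin hydrolase, had 585 ± 244 CPM in RPMS and 8.64 ± 2.29 CPM in RPM (adjusted p = 0.0013), and the synaptic gene Cplx2 had 887 ± 514 and 24.8 ± 4.35 CPM in RPMS and RPM (adjusted p = 0.00188). Of 13 neural helix-loop-helix factors related to NEUROD1, 2 were tested. Neurod4 passed, with 11.1 ± 9.22 CPM in RPMS and 0 counts in RPM (edgeR adjusted p = 0.0261). Atoh8 did not, with 3.88 ± 2.63 CPM in RPMS and 17.0 ± 21.7 CPM in RPM (adjusted p = 0.35), and the median of both was 2.22 with Neurod4 at its bound. Of 13 zinc finger factors with the SNAG repressor domain of INSM1 and their corepressors, 11 were tested, 6 rose and 1 fell (median log2 fold change 1.08). The gene that fell was Snai1, a repressor of epithelial genes, named after its values were seen (log2 fold change -2.72, SE 0.64, edgeR adjusted p = 0.0194). The histone deacetylase gene Hdac2 had 286 ± 16.8 CPM in RPMS and 110 ± 11.0 CPM in RPM (adjusted p = 0.0021). Scrt1, a neural repressor, had 58.6 ± 35.4 CPM in RPMS and 0.0881 ± 0.176 CPM in RPM (adjusted p = 0.0054), and Insm2 had 2.09 ± 1.13 and 0.0196 ± 0.0391 CPM in RPMS and RPM (adjusted p = 0.00647).

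Nkx2-1 (chr12:56531958-56536908, minus strand) had 224, 238 and 147 CPM in RPMS lines CMV_228, CMV_231 and CMV_252, against 14.6, 16.4, 49.0 and 126 CPM in RPM lines CMV_426, CMV_427, CMV_428 and CMV_429. All RPMS lines lay above all RPM lines, but RPM line CMV_429 came close. The log2 fold change of 1.98 (SE 0.76) did not pass (edgeR adjusted p = 0.0910). It passed with DESeq2 (adjusted p = 0.0362), with limma-voom (0.0265) and without RPM line CMV_429 (log2 fold change 2.92, edgeR adjusted p = 0.0168).

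Foxa1 (chr12:57540628-57546916, minus strand) had 362, 301 and 86.8 CPM in RPMS lines CMV_228, CMV_231 and CMV_252, against 12.5, 24.1, 75.6 and 113 CPM in RPM lines CMV_426, CMV_427, CMV_428 and CMV_429. The groups overlapped, since RPMS line CMV_252 lay below RPM line CMV_429. The log2 fold change of 2.15 (SE 0.82) did not pass (edgeR adjusted p = 0.0875), and it passed with DESeq2 (0.0295). Foxa2 (chr2:148042877-148046969, minus strand) had 115, 134 and 4.34 CPM in the same RPMS lines, against 3.29, 13.2, 38.3 and 37.2 CPM in the RPM lines. CMV_252 set Foxa2 apart within RPMS, below 3 of the 4 RPM lines, and the log2 fold change of 1.88 (SE 1.14) did not pass (edgeR adjusted p = 0.256).

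Within the RPM group, the 3 lung lineage factors were lowest in CMV_426, next in CMV_427 and higher in CMV_428 and CMV_429. Summed alveolar and airway genes were 188 and 227.8 CPM in RPM lines CMV_426 and CMV_427, and 1030 and 1442 CPM in CMV_428 and CMV_429, while the leukocyte sums given above were largest in CMV_426 and CMV_427. The part of either in the levels of the factors was not tested. Of 16 alveolar and airway genes 10 were tested, and only Napsa, an alveolar protease gene, passed, with 0.114 ± 0.0996 CPM in RPMS and 18.8 ± 12.6 CPM in RPM (edgeR adjusted p = 0.00689). The median log2 fold change was -2.51, and the sums in RPMS were 149 to 160 CPM. The surfactant gene Sftpb had 0 counts in RPMS and 0 to 348 CPM in RPM (adjusted p = 0.0855).

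**Figure D2:**
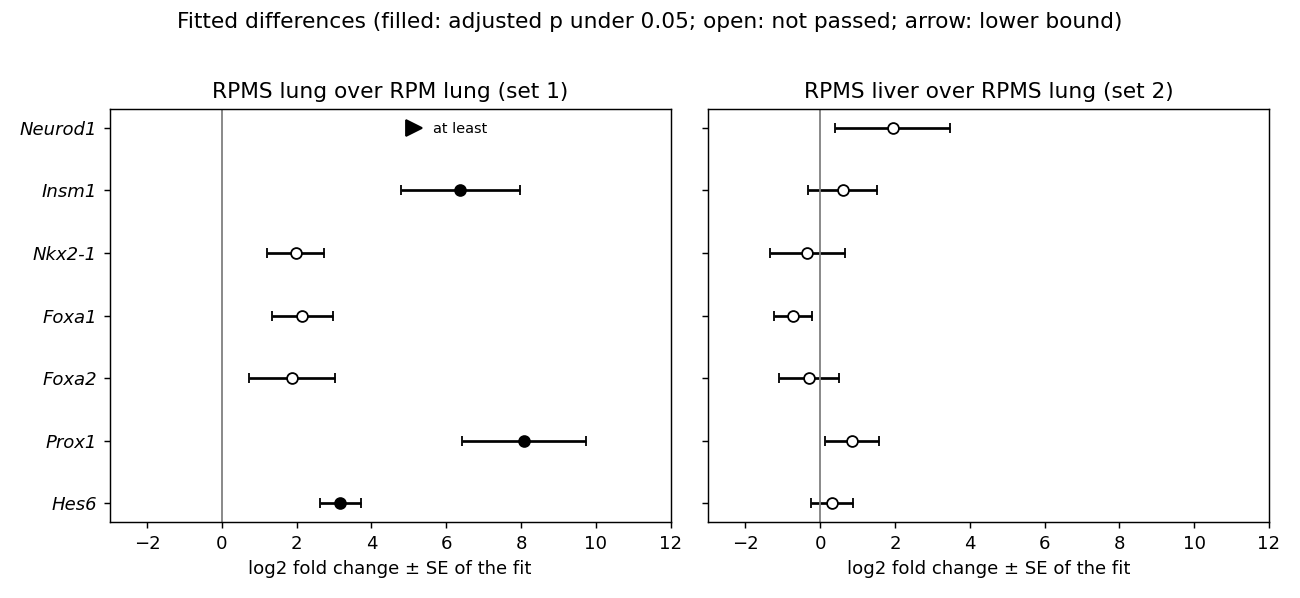
Log2 fold change of the 7 tested factors with its SE, for RPMS lung over RPM lung in set 1 (left) and RPMS liver over RPMS lung in set 2 (right). Filled points passed an adjusted p of 0.05, open points did not, and the arrow is the lower bound of Neurod1; 4 factors passed in set 1 and 0 in set 2.

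In the second comparison, RPMS lines from the liver were set against RPMS lines from the lung to ask whether the factors differ in metastases. No factor passed, and every factor overlapped between the groups. Of the 7 members tested, 4 had a positive and 3 a negative log2 fold change, with a median of 0.32, against -0.02 over all 14441 tested genes. Without the library labelled CMV_252 the median of the members was -0.02, against 0.03 over all tested genes. edgeR called 0 of all tested genes (0%), with 650 at an unadjusted p under 0.05, DESeq2 called 75 genes and 0 members, limma-voom called 0 genes, and 2.56% of all tested genes did not overlap between the groups. Lines of 1 tissue differed widely: among the 4 liver lines the highest level of Nkx2-1 was 149 times the lowest, and that of Neurod1 110 times.

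Neurod1 had 33.8, 63.8, 0.796 and 0.580 CPM in liver lines CMV_273, CMV_341, CMV_343 and CMV_344 (625, 1199, 15 and 6 counts), against 8.12, 9.81, 7.83 and 0.0762 CPM in lung lines CMV_228, CMV_231, CMV_232 and CMV_252. A pair of liver lines lay above every lung line, and the other pair lay below 3 of the 4 lung lines. Neurod1 differed by a log2 fold of 1.94 (SE 1.53, edgeR adjusted p = 0.945), and 1.52 without lung line CMV_252, 0.86 without liver line CMV_341 and 1.06 with limma-voom. Cerkl, which overlaps Neurod1, had 3 to 22 counts in liver and 0 to 5 counts in lung libraries. Pou2f3 had 2, 1, 1 and 3 counts in liver and 0, 0, 0 and 6 in lung lines, and Atoh1 had 3, 0, 0 and 2 counts in liver and 8, 0, 4 and 0 in lung lines, in the same order of lines. Both stayed under 0.5 CPM and were not tested.

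Insm1 had 1254, 911, 683 and 729 CPM in liver lines CMV_273, CMV_341, CMV_343 and CMV_344, against 903, 816, 628 and 9.91 CPM in lung lines CMV_228, CMV_231, CMV_232 and CMV_252. It was high in all lines but lung line CMV_252. Insm1 differed by a log2 fold of 0.61 (SE 0.92, edgeR adjusted p = 0.966), and 0.20 without CMV_252 and 1.77 with limma-voom. Prox1 had 212, 398, 727 and 567 CPM in the liver lines, against 269, 269, 497 and 27.4 CPM in the lung lines. Liver lines CMV_343 and CMV_344, lowest in Neurod1 among the liver lines, were the highest 2 lines for Prox1 in set 2. The log2 fold change of Prox1 was 0.85 (SE 0.71, edgeR adjusted p = 0.945), and 0.49 without CMV_252. Hes6 had 193, 340.9, 174 and 191 CPM in the liver lines, against 270, 139, 277 and 34.5 CPM in the lung lines, with liver line CMV_341 the highest. Its log2 fold change was 0.32 (SE 0.56, edgeR adjusted p = 0.972), and -0.02 without CMV_252.

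Nkx2-1 had 573, 4.47, 427.4 and 666 CPM in liver lines CMV_273, CMV_341, CMV_343 and CMV_344, against 615, 825, 317 and 367 CPM in lung lines CMV_228, CMV_231, CMV_232 and CMV_252. Liver line CMV_341 alone was low, and CMV_252 was not. The log2 fold change was -0.35 (SE 1.00, edgeR adjusted p = 0.982), -0.48 without CMV_252, 0.06 without CMV_341 and -1.57 with limma-voom. Foxa1 had 168, 260, 310 and 141 CPM in the liver lines, against 393, 580, 396 and 90.7 CPM in the lung lines. Apart from CMV_252, every lung line exceeded every liver line. That separation was seen after setting CMV_252 aside, and the share of all tested genes that separate on the same terms was not determined. The log2 fold change of Foxa1 was -0.73 (SE 0.51, edgeR adjusted p = 0.945) and -1.04 without CMV_252 (adjusted p = 0.835). Foxa2 had 157, 39.4, 161 and 94.3 CPM in the liver lines, against 173, 177, 197 and 7.70 CPM in the lung lines. Its log2 fold change was -0.29 (SE 0.80, edgeR adjusted p = 0.982) and -0.68 without CMV_252, and with limma-voom the sign turned (0.21).

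**Figure D3:**
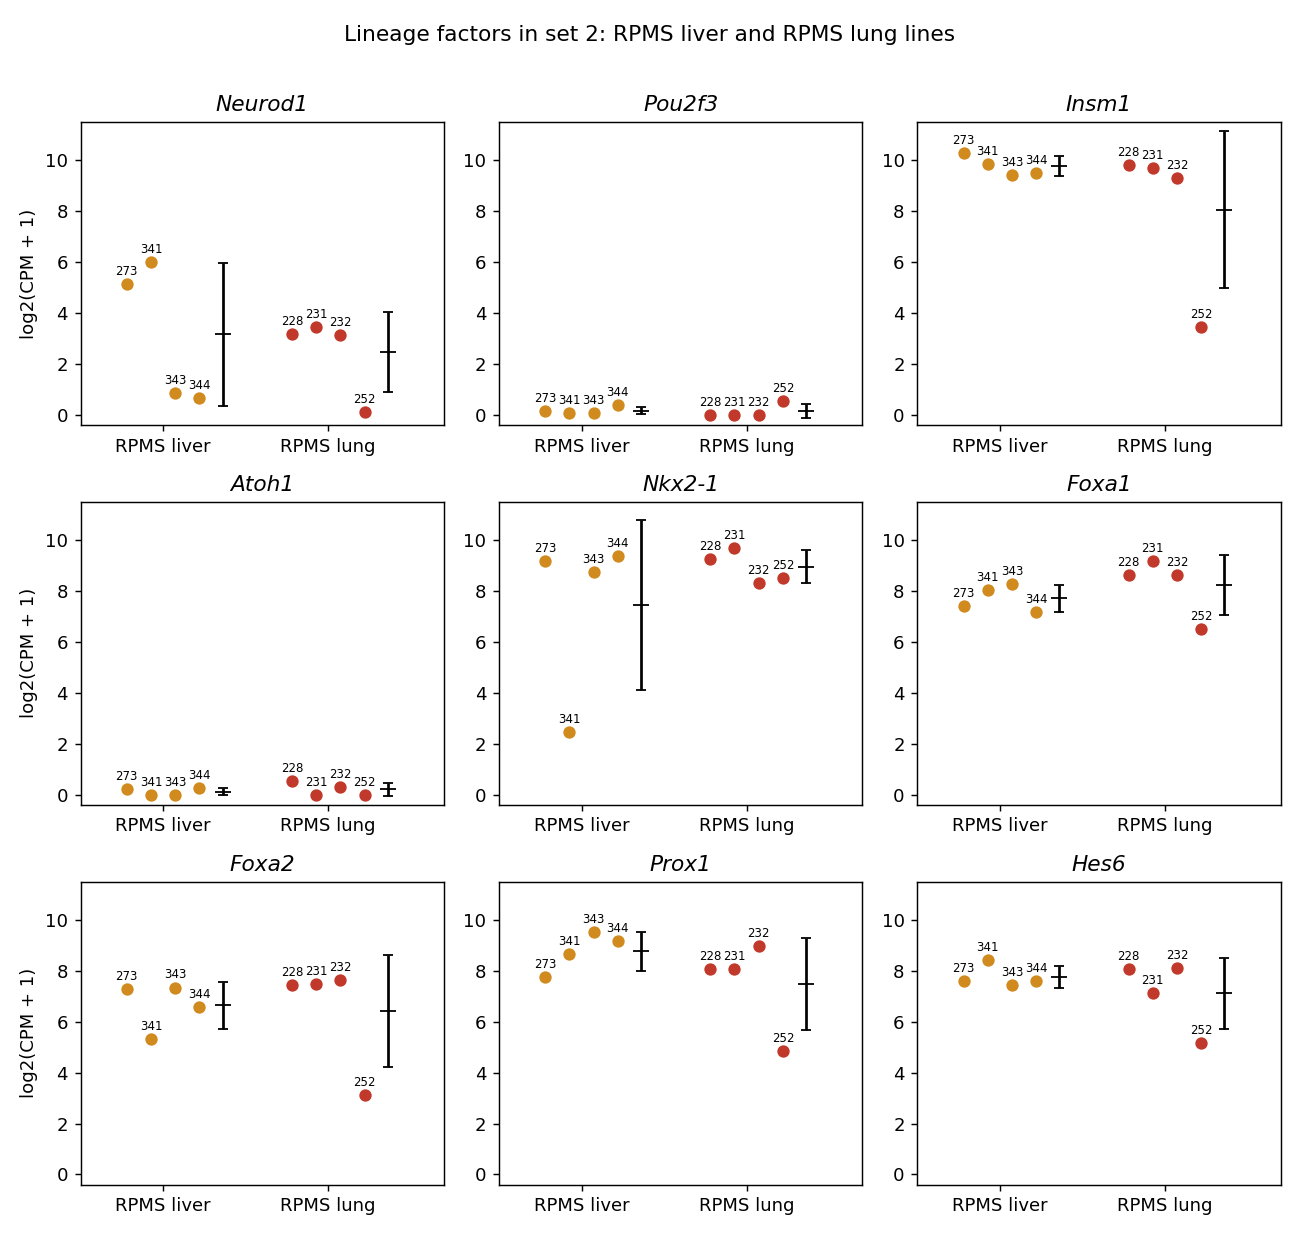
Level of each factor in set 2, as log2(CPM + 1), with RPMS liver lines left (orange) and RPMS lung lines right (red), each point a library labelled by its line number, and the mean ± SD of the log values in black. The groups overlap for all 9 factors; lung line CMV_252 is lowest of its group for Neurod1, Insm1, Foxa1, Foxa2, Prox1 and Hes6, and liver line CMV_341 is far below the others for Nkx2-1.

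Since edgeR called 0 of all tested genes between liver and lung lines (0%), with and without CMV_252, no gene of the accompanying groups passed either, which says nothing particular to them. The median log2 fold change was 0.48 over the 21 tested neuroendocrine effector genes. The same median was taken over 2 neural helix-loop-helix factors (0.89), 4 Atoh1-related genes (-1.14), 2 tuft cell genes (1.01), 12 SNAG factors and corepressors (-0.23) and 3 HES and HEY genes (0.91). It was also taken over the 7 alveolar and airway (-0.02), 1 hepatocyte (-0.30), 2 endothelial (-0.40), 2 leukocyte (-0.59) and 3 fibroblast genes (0.99) that were tested. Without the library labelled CMV_252 it was 0.08 for the neuroendocrine effector genes, 2.24 for the tuft cell genes, 0.43 for the alveolar and airway genes, 0.77 for the endothelial genes and 2.53 for the fibroblast genes, and it moved less than any of these for the other 6 groups. Scg2, a granin of secretory granules, had 27.5 ± 14.1 CPM in liver and 3.19 ± 2.51 CPM in lung lines without overlap (adjusted p = 0.945). Insm2, the paralog of Insm1, ranged from 1.19 to 165 CPM in liver lines and from 0.762 to 2.69 CPM in lung lines (adjusted p = 0.945). Hepatocyte genes summed to 1.27 to 4.22 CPM in liver and 1.52 to 4.17 CPM in lung lines, with Serpina1a and Fgb at 0 in all 8 libraries. Leukocyte sums were 5.79 to 12.7 CPM in liver and 8.16 to 16.8 CPM in lung lines. Summed fibroblast genes were 3.09 to 143 CPM in liver lines, highest in CMV_341, and 1.60 to 10.6 CPM in lung lines (to 1.90 CPM without CMV_252), and alveolar and airway genes 67.1 to 141 and 98.1 to 204 CPM in liver and lung. Their part in the levels of the factors was not tested.

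By the 3 factors that name subtypes here, a library was called for the highest of Neurod1, Pou2f3 and Atoh1 per length if it reached 1 CPM. Neurod1 was called in 8 of 15 libraries and none of the 3 in the other 7. Called for Neurod1 were RPMS lung lines CMV_228, CMV_231 and CMV_252 in set 1, liver lines CMV_273 and CMV_341, and lung lines CMV_228, CMV_231 and CMV_232 in set 2. Without a call were liver lines CMV_343 and CMV_344, lung line CMV_252 in set 2 and all 4 RPM lines. Insm1 and Hes6 both reached 10 CPM, taken as a neuroendocrine state, in 10 libraries: all 3 RPMS lung lines of set 1, all 4 liver lines, 3 of the 4 lung lines of set 2, and none of the 4 RPM lines. Hes6 was above 10 CPM in all 15 libraries (lowest 15.3 CPM, in RPM line CMV_429), so Insm1 alone decided this state. CMV_252 of set 2 missed the limit of 10 CPM by little, with 9.91 CPM of Insm1, as did RPM line CMV_427 with 9.75 CPM. The calls depend on the limit: at 0.5 CPM liver lines CMV_343 and CMV_344 were called for Neurod1 as well (10 libraries), and at 5 CPM RPMS lines CMV_228 and CMV_231 of set 1 were not (6 libraries).

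Per kb of exon, Insm1 exceeded Neurod1 in every RPMS library, by 12.6-fold in liver line CMV_341 to 1106-fold in liver line CMV_344, so a call for Neurod1 does not mean that Neurod1 led. The highest factor per kb was Insm1 in all 4 liver lines. In set 2 lung lines it was Insm1 in CMV_228 and CMV_232 and Nkx2-1 in CMV_231 and CMV_252. In set 1 it was Hes6, Insm1 and Nkx2-1 in RPMS lines CMV_228, CMV_231 and CMV_252. In the RPM lines it was Hes6 in CMV_426 and CMV_427, Foxa1 in CMV_428 and Nkx2-1 in CMV_429. Foxa1 exceeded Foxa2 per kb in every library but that of liver line CMV_273, where the ratio was 0.766. It was highest in both libraries of RPMS lung line CMV_252, at 8.39 in set 2 and 14.2 in set 1, and it was 1.30 to 2.71 in RPM lines.

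**Figure D4:**
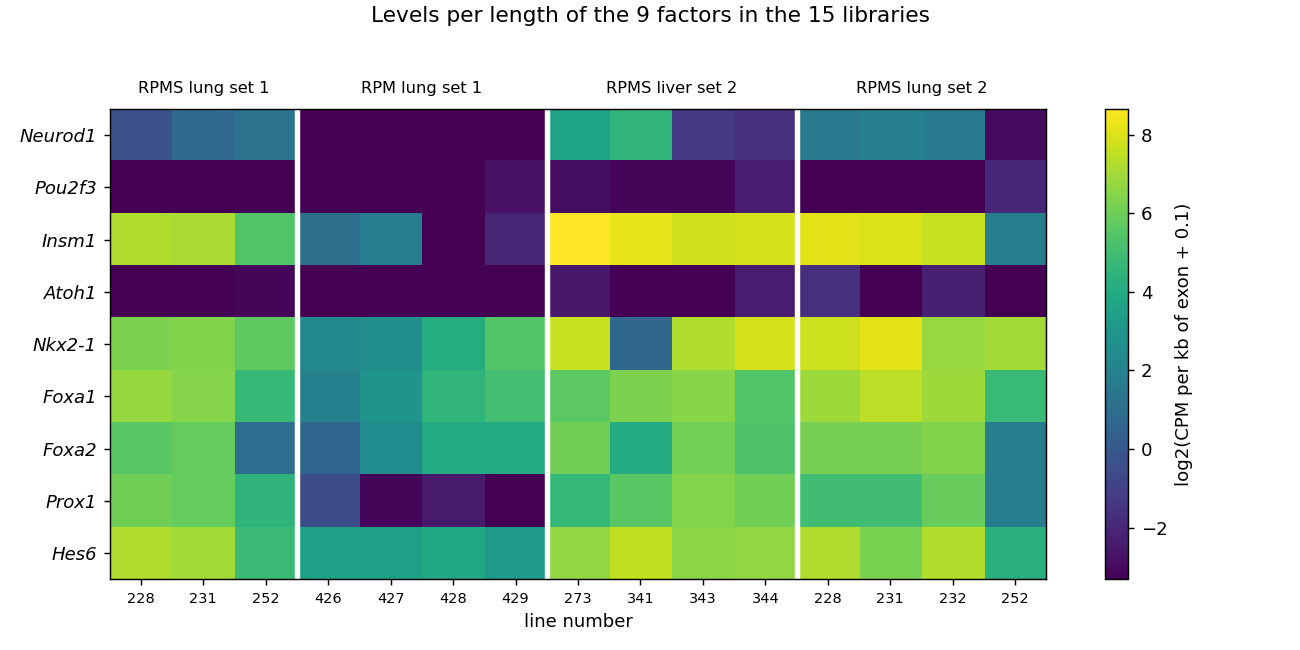
Level of each factor per length, as log2(CPM per kb of exon + 0.1), by colour, in the 15 libraries grouped as RPMS lung and RPM lung of set 1 and RPMS liver and RPMS lung of set 2. Pou2f3 and Atoh1 are dark throughout, Insm1 is bright in 10 of the 11 RPMS libraries and dark or dim in the RPM libraries, and Nkx2-1 drops in liver line CMV_341.

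A set of 3 RPMS lung lines is in both tables, which were counted separately, so their values are set side by side with no test. Neurod1 was at 8.12 CPM in set 2 and 1.90 CPM in set 1 for CMV_228, and at 9.81 and 4.37 CPM in set 2 and set 1 for CMV_231. The libraries labelled CMV_252 went the other way, with 0.0762 CPM in set 2 and 6.21 CPM in set 1. Insm1 was higher in set 2 for CMV_228 (903 CPM in set 2 and 460 CPM in set 1) and CMV_231 (816 and 442 CPM), and lower for CMV_252 (9.91 and 133 CPM). Prox1 was lower in set 2 for all 3 lines: 269 CPM in set 2 and 556 CPM in set 1 for CMV_228, 269 and 471 CPM for CMV_231, and 27.4 and 187 CPM for CMV_252. Foxa1 (90.7 and 86.8 CPM in set 2 and set 1) and the low Foxa2 (7.70 and 4.34 CPM) were alike in both libraries labelled CMV_252. Whether these are libraries of the same line was not tested.

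Nkx2-1 did not vary alone. Genes were ranked by how closely their log2 CPM followed a factor across libraries, as the lower of the Pearson correlations of deviations from the group means over 7 libraries of set 1 and 8 of set 2, among 13787 genes. The 3 genes nearest to Nkx2-1 all lie beside it on chromosome 12: Sfta3-ps (chr12:56488321-56529427, r = 0.936 in set 1 and 0.983 in set 2), Gm47720 (chr12:56498688-56500828, 0.934 and 0.931) and Mbip (chr12:56328303-56345894, 0.956 and 0.916). Sfta3-ps ends 2.53 kb and Mbip 186 kb from Nkx2-1, and Gm47720 lies inside Sfta3-ps, so their reads may be shared. In set 2 the correlations without liver line CMV_341 were 0.842 for Sfta3-ps, 0.626 for Gm47720 and 0.83 for Mbip, and without the library labelled CMV_252 they were 0.985, 0.956 and 0.916. In liver line CMV_341 Sfta3-ps was at 2.13 CPM, against 60.2 to 318 CPM in the other 7 libraries of set 2. Mbip, which encodes a kinase-binding protein, was at 14.6 CPM in CMV_341, against 40.9 to 117 CPM. Gm26973, the antisense transcript that overlaps Nkx2-1, had 0 counts in CMV_341 and 83 to 323 counts in the other 7. Its exons do not overlap those of Nkx2-1.

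The next protein-coding genes on either side that were tested in both tables, chosen after their values were seen, were not low in CMV_341. Pax9, a paired-box factor (chr12:56691767-56712822), was at 97.2 CPM in CMV_341, against 11.7 to 115 CPM in the other 7 libraries. Brms1l, a subunit of a histone deacetylase complex (chr12:55836324-55869736), was at 52.2 CPM, against 48.3 to 76.8 CPM. Transcripts not coding for protein lie between. Toward Pax9, Gm38103 and Gm48835 were at 0 CPM in CMV_341, against 0.424 to 1.08 and 0.955 to 2.29 CPM in the other 7 libraries. Toward Brms1l, Gm19990 was at 0.266 CPM, within the 0.0571 to 224 CPM of the others. The same line was the highest of the set 2 libraries for Neurod1 (63.8 CPM) and Hes6 (340.9 CPM), and the lowest but CMV_252 for Foxa2 (39.4 CPM).

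**Figure D5:**
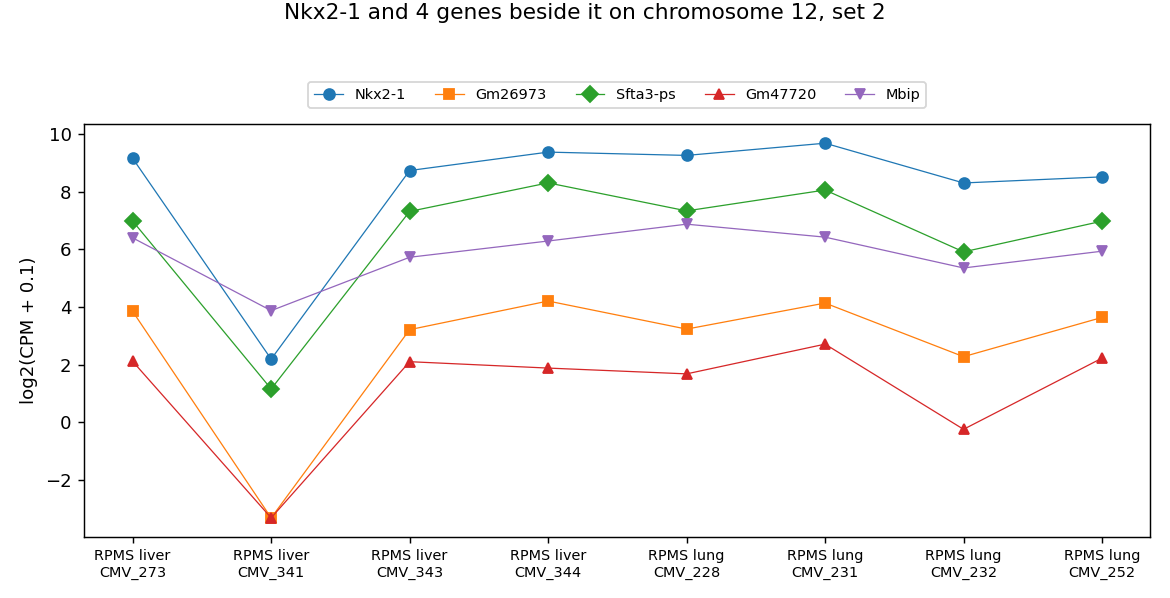
Level of Nkx2-1 and of 4 genes that overlap it or lie beside it on chromosome 12, as log2(CPM + 0.1), in the 8 libraries of set 2, with RPMS liver lines left and RPMS lung lines right; lines join the points of a gene as a guide for the eye. All 5 genes have their lowest value in liver line CMV_341, where Nkx2-1 is at 4.47 CPM and Gm26973 and Gm47720 have 0 counts.

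For the other factors the nearest genes were not neighbours. Dlgap3, a postsynaptic scaffold gene, was nearest to Insm1 (r = 0.984 in set 1 and 0.942 in set 2), before Evl and Armcx1. Ccdc28b was nearest to Hes6 (0.975 and 0.962), Tmem246 to Prox1 (0.971 and 0.921), Zbtb1 to Foxa1 (0.959 and 0.950), Stard13 to Foxa2 (0.945 and 0.965) and Ap1g1 to Neurod1 (0.894 and 0.894). Between members the deviations of Foxa1 and Foxa2 went together in both tables (r = 0.901 in set 1 and 0.800 in set 2). Insm1 and Foxa1 did so in set 2 (0.868) and not in set 1 (-0.541). Points share library and depth, and many of the set 2 values rest on the library labelled CMV_252. Without it the correlation in set 2 was -0.28 for Dlgap3 with Insm1, 0.48 for Tmem246 with Prox1, -0.12 for Foxa1 with Foxa2 and -0.20 for Insm1 with Foxa1. Also without that library, it was 0.775 for Ccdc28b with Hes6, 0.872 for Zbtb1 with Foxa1, 0.904 for Stard13 with Foxa2 and 0.850 for Ap1g1 with Neurod1. Neurod1 had 0 counts in the 4 RPM libraries, so its deviations in set 1 come from the 3 RPMS libraries. The set 1 library of CMV_252 was the lowest RPMS library for Foxa1 (86.8 CPM, against 301 and 362 CPM in the others). The same held for Foxa2 (4.34 CPM, against 115 and 134 CPM) and Hes6 (51.6 CPM, against 233 and 272 CPM). Neurod1 was highest there (6.21 CPM). No set 1 correlation was recomputed without CMV_252, so whether values high in both sets rest on libraries of this label was not tested. Each nearest gene was picked from 13787. A high correlation over 7 or 8 libraries can come from that choice alone, which was not tested.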

How the data were processed

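Values are raw read counts per gene, deposited by the authors as 2 tables of whole numbers. HISAT2, StringTie and GRCm38 are named per the submitters' processing notes, and their roles, versions, the annotation and the strand setting are not given in the sources used here. Per the labels' protocols, libraries came from total RNA with a stranded kit. In set 2, 1832 records without a gene name (0.0569% to 0.0799% of a library's counts) were left out, and set 1 had 0. Total counts per library, and the floor of 3 counts in CPM, are given in the report; floors cover counting error only.

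Within each table, groups were compared in R 4.3.3 with edgeR 4.0.16 (default expression filter, TMM factors, two-sided quasi-likelihood test, Benjamini-Hochberg adjustment over all genes tested, threshold 0.05). Standard errors (SE) come from the F statistic. The tables were not pooled. CPM use all named counts and TMM factors. The test was checked on simulated counts. In set 1 it called 12 of 100 genes changed 4-fold and 97 of 100 changed 16-fold. In set 2 it called 17 of 100 and 96 of 100. Most 4-fold changes were missed, so not passing does not show that a factor was unchanged. Alternatives were DESeq2 1.42.0, limma-voom (limma 3.58.1), relative log expression (RLE) factors, no filter, leaving out each library and, for subtype calls, other limits. Set 2 list medians and correlations without CMV_252 or CMV_341 were chosen after seeing the data.

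The members and 11 context lists (neuroendocrine effectors, neural helix-loop-helix factors, Atoh1-related, tuft, SNAG, HES and HEY, alveolar and airway, hepatocyte, endothelial, leukocyte and fibroblast genes) were chosen with earlier results of these data known. Named were all members, up to 3 genes per list with the smallest p, the 3 nearest genes per member, and genes that overlap a member. Positions and exon lengths are from GENCODE M21 on GRCm38, matched by symbol. The column of line CMV_429 carries an extra letter before its title. A fold against a group at 0 is a bound at 3 counts per library, with group means.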

Additional observations from a re-analysis of the deposited data

Results flagged for a closer look

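In 3 of the 20 member groups of 4 libraries examined, 1 library lay far from the others of its group, by its gap in CPM to the nearest library as a share of the whole range of the group. The limit used is passed by chance in about 1 of 20 independent groups, and these groups share libraries, so they are not independent. Foxa2 was at 7.70 CPM in the library labelled RPMS lung line CMV_252 of set 2, and at 173 to 197 CPM in the other 3 lung lines. Prox1 was at 5.17 CPM in RPM lung line CMV_426, and at 0 to 0.680 CPM in the other 3 RPM lines. Hes6 was at 340.9 CPM in RPMS liver line CMV_341, and at 174 to 193 CPM in the other 3 liver lines. The gaps were 0.872, 0.868 and 0.887 of the range. On this linear scale the low Nkx2-1 of liver line CMV_341 (4.47 CPM) and the low Insm1 of CMV_252 in set 2 (9.91 CPM) did not reach the limit, with gaps of 0.639 and 0.691 of the range, since the other 3 lines of each group were themselves spread.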

How the results depend on the processing

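For RPMS against RPM lung lines, the number of genes past the threshold was 5403, and 2896 to 7076 when a library was left out (2896 without RPMS line CMV_228 and 3103 without CMV_231). Over all genes, DESeq2 called 7582 and limma-voom 5700. Members past the threshold were 4, 6 with DESeq2, 5 with limma-voom, and 3 to 5 when a library was left out. Of the 77 member values recomputed, 71 kept their direction and side of the threshold, 4 passed where they had not, and 2 (Insm1) no longer passed. The values of Insm1, Nkx2-1 and Foxa1 are in the report. For liver against lung lines, 0 genes passed with edgeR (650 at an unadjusted p under 0.05), 75 with DESeq2 and 2 without the filter on low counts. The sign turned for 3 of 84 member values, none of which passed: Foxa2 was 0.21 with limma-voom, against -0.29, Hes6 ran from -0.0173 to 0.60 when a library was left out, and Nkx2-1 from -0.66 to 0.0635. The cause was not tested. Set 2 list medians and correlations without a library were added after seeing the data and are in the report. RLE factors moved the median of all genes by 0.00935 and 0.000212 on the log2 scale. No paired analysis was possible because the groups compared share no line number. With Pou2f3 and Atoh1 at a few counts or 0, a difference between groups was not detectable at this depth.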
